A study of Mus musculus and synthetic construct with 9 samples.

Results

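The elements described here are 124 human SNP sites whose reference and alternate alleles both drove the reporter of a massively parallel reporter assay (MPRA) at a moderate level in standard culture of MIN6 cells. An element is the pair of oligos that carry the alleles of 1 SNP in otherwise the same genomic sequence, so that the 124 elements comprise 248 sequences. They were selected on the counts of standard culture, from log2 RNA over plasmid of the summed libraries, centred on the median sequence. Both alleles had to lie above 0.5 and up to 2 on this scale, with a plasmid sum of at least 500 counts for each. They make up 1.98% of the 6248 SNP pairs with enough plasmid counts, of 6628 pairs and 13628 sequences in all. Since the standard culture values chose the elements, they are given below as a description and received no test.

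MIN6 cells come from a mouse insulinoma and retain much of the biology of pancreatic β cells, so human sequences were read here by mouse transcription factors. The study tested SNPs linked to type 2 diabetes (T2D) and related traits, SNPs tied to differences in islet chromatin accessibility and further SNPs in accessible islet chromatin, in 3 culture conditions with 5 RNA libraries each used here, from transfections on separate days. Cells in standard culture received plasmid batch 1 and no change of medium. The other cells received plasmid batch 2, which was made from batch 1, and a medium change at 6 h after transfection to either 0.025% DMSO or 250 nM thapsigargin (Tg) in 0.025% DMSO, with harvest at 30 h. All groups share the same mouse line, reporter and oligo design, and 5 libraries of each plasmid batch served as the reference. The libraries held 19851799 to 30938393 counts in standard culture, 28896082 to 33325429 in DMSO, 29968043 to 44899256 in Tg and 23009482 to 36129587 for plasmid batch 2. A count is the number of barcode reads of a sequence, and reads without molecular identifiers are not independent molecules.

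In an MPRA, each candidate sequence is placed in a plasmid together with short barcodes in the transcribed reporter, and the barcodes in RNA relative to those in plasmid report how strongly the sequence drives transcription. Enhancers and promoters both score in such an assay, since each collects transcription factors through short motifs, and a SNP that alters a motif can change the output of 1 allele. Tg blocks the calcium pump of the endoplasmic reticulum, which empties its calcium store and sets off the unfolded protein response. That response lowers general protein synthesis and induces factors such as ATF4 and CHOP, and it is a known strain on insulin-secreting cells.

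The bases around the SNP are shown for 5 of the elements, to let a reader see what kind of sequence stands behind their values. None of the 5 is from the elements that fell in Tg for both alleles, so they do not stand for the whole set. They are on the plus strand of hg19, with the reference base of the SNP in capitals, and were put together from the motif matches in the study's tables, of which only a part was used here. The first, rs12794698 (chr11:45871847-45871875) at the locus of CRY2, a repressor of the circadian clock, rose in Tg for both alleles.
rs12794698: ctgtgcccggccttGggcattaaggtttt

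The next pair passed the test of Tg against DMSO for 1 allele, with the other allele on the same side. It holds rs11169627 (chr12:51348438-51348465) at HIGD1C and rs12477908 (chr2:27987032-27987061), which carried a large allelic effect.
rs11169627: ggtgcaggttgcGgtgagccaagatcac
rs12477908: ctaaaatacaaaaaAttgccagctgcgggg

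The last pair passed it for neither allele. It holds rs12428731 (chr13:80709583-80709609) near SPRY2, an inhibitor of receptor tyrosine kinase signalling, and rs10248619 (chr7:50751078-50751105) at GRB10, an adaptor that binds the insulin receptor.
rs12428731: tagctgggcatgGtgacaggcacctgt
rs10248619: tggtggtgaaggTtgtgcaaccatgtga

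At the edges of the range, the elements just inside 0.5 were rs4586599 (0.59 and 0.50 for the reference and alternate alleles) and rs8042747 (0.50 and 0.50). Just outside were rs73079965 (0.50 and 0.67, with the first value below 0.5 before rounding) and rs77409243 (0.52 and 0.50). At the upper edge, rs343093 (1.75 and 1.80) and rs28499105 (1.74 and 1.65) were the highest inside, and rs832572 was outside at 1.42 and 2.41. Only 51 pairs had both alleles above 2, and 2165 had both between 0 and 0.5, so that the 124 elements lie in the upper tail of the library. A further 83 pairs had 1 allele in the range and the other at 0.5 or less, and 1 pair had the other above 2. Over all 6 RNA and plasmid numbers of standard culture in place of the 5 used, 112 elements met the same limits and 111 of them were among the 124.

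In the following, activity is log2 of RNA over mean plasmid counts in a library, with a pseudocount of 1, minus the median of all sequences with at least 500 plasmid counts. A value of 0 is thus the median sequence, and 1 is a doubling over it. In standard culture, the activity of the 248 sequences ran from 0.48 to 1.80 with a median of 0.74, and the SD over 5 libraries had a median of 0.091. RNA number 1 over plasmid number 6, which did not enter the choice, placed 176 of the 248 sequences (71.0%) above 0.5 and up to 2, and all 248 above 0. Most elements stayed in the range in DMSO and Tg as well. Both alleles stayed above 0.5 and up to 2 in 93 of 124 elements in DMSO (75.0%), in 109 in Tg (87.9%) and in 87 in both (70.2%). In DMSO 17 sequences exceeded 2 and 33 lay between 0 and 0.5, while in Tg no sequence exceeded 2 and 21 lay between 0 and 0.5.

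Nearly all elements were active in the libraries that had no part in choosing them. In DMSO, 242 of 248 sequences had more RNA than plasmid by edgeR's quasi-likelihood test at an FDR of 1%, against 19.8% of all 13413 sequences tested, and in Tg 241 had, against 12.8%. Both alleles were active in 121 elements in DMSO and in 118 in Tg, and no sequence had less RNA than plasmid at this FDR. Activity was above 0 in every DMSO library for 243 of the 248 sequences and in every Tg library for 244. The sequences that missed the test in DMSO were both alleles of rs4686471, rs62325139 and rs8042747. With libraries scaled by total counts only, in place of TMM, the active sequences numbered 144 in DMSO and 92 in Tg. Under that scaling some elements had less RNA than plasmid for both alleles at this FDR. Examples are rs8180033 in DMSO (larger adjusted p of the alleles 2.68e-09 by edgeR) and rs2871741 in Tg (2.01e-08).

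The most active element in DMSO was rs643807, whose reference allele read 2.55, 3.17, 2.59, 2.78 and 3.01 in DMSO libraries 1 to 5 and 2.04, 1.73, 1.57, 1.58 and 1.70 in Tg libraries 1 to 5. Every DMSO value stood above every Tg value, and library 2 was the highest of DMSO. Next in DMSO came rs17164589, upstream of MAEA, which encodes a subunit of the CTLH ubiquitin ligase, with a mean of 2.64 over its alleles, then rs73402046 (2.38), rs9592021 (2.37) and rs4276083 (2.18). In Tg the order changed, and rs4276083 at the locus of FITM2, a lipid droplet assembly factor, led with a mean of 1.77 over its alleles. It was followed by rs643807 (1.74), rs28499105 (1.70), rs59091366 (1.66) and rs56158923 (1.60), and each differed from the next by less than the larger of their SDs over libraries. The lowest means in DMSO were those of rs8042747 (0.19), rs2301825 (0.24), rs7970193 (0.27), rs4686471 (0.31) and rs8180033 (0.31). In Tg the lowest were rs7320023 (0.19), rs2871741 (0.29), rs7970193 (0.39), rs8042747 (0.39) and rs1990352 (0.40). At the low end of DMSO each again differed from the next by less than the larger SD. Scaled by total counts only, edgeR's RNA over plasmid log2 ratio of these low elements turned below 0 as a mean of the alleles. That ratio is not centred on the median sequence.

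The elements of moderate activity held a group that fell and a group that rose in Tg, beside others without a change called for both alleles. By edgeR's test of Tg against DMSO RNA counts at an FDR of 1%, 88 of 248 sequences were lower in Tg (35.5%, against 4.17% of all 13413 sequences) and 69 were higher (27.8%, against 2.04%). Both alleles were lower in 42 of 124 elements (33.9%, against 2.69% of 6501 SNP pairs) and both were higher in 25 (20.2%, against 1.31%). In 23 elements a single allele passed, 19 of them higher and 4 lower, and the fitted change of the other allele had the same sign in all 23. In the other 34 neither allele passed, and no element had alleles that passed in opposite directions. Every Tg library lay below every DMSO library for 87 of the 248 sequences (35.1%, against 5.54% of all sequences tested) and above for 64 (25.8%, against 2.43%). The median log2 fold change over the 248 sequences was 0.12, against 0.01 over all sequences tested. Scaled by total counts only, 32 sequences and both alleles of 9 elements were higher in Tg, while 45 elements were lower for both alleles.

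The neighbouring ranges of activity gave other counts. Of the 102 sequences of pairs with both alleles above 2, 75 rose in Tg (73.5%) and none fell, with a median log2 fold change of 0.30. Of the 4330 sequences of pairs between 0 and 0.5, 76 rose (1.76%) and 384 fell (8.87%), with a median of -0.02. The difference between these ranges was not tested, and for these bands the standard culture values that set them share no RNA library with the DMSO and Tg values.

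Among the elements that fell, the mean log2 fold change of both alleles ran from -1.18 to -0.22, with a median of -0.74. The largest fall was at rs17164589 (chromosome 4, position 1283608 of hg19, G to T), upstream of MAEA, where the study's motif table lists EGR1, SP1, SP2 and ZNF263. Its reference allele read 2.49, 2.97, 2.48, 2.63 and 2.80 in DMSO and 1.76, 1.39, 1.23, 1.42 and 1.59 in Tg. The alternate allele read 2.35, 2.96, 2.43, 2.63 and 2.68 in DMSO and 1.64, 1.44, 1.25, 1.41 and 1.32 in Tg. The groups did not overlap for either allele, and the gap between them exceeded the spread within each. The log2 fold change was -1.18 ± 0.11 (SE, adjusted p = 1.63e-05) for the reference and -1.19 ± 0.10 (SE, adjusted p = 6.05e-07) for the alternate allele by edgeR, or 2.26-fold and 2.28-fold lower in Tg. For rs643807 the values given above amount to -1.09 ± 0.14 (SE, adjusted p = 0.000403) for the reference allele by edgeR, and the alternate allele fell as well (adjusted p = 0.00243).

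At rs2871741 (chromosome 10, position 45838257, A to G), the reference allele fell from 1.12, 1.38, 1.06, 1.27 and 1.33 in DMSO to 0.35, 0.32, 0.10, 0.31 and 0.21 in Tg, and the alternate allele from 1.29, 1.45, 1.23, 1.28 and 1.38 to 0.42, 0.36, 0.35, 0.22 and 0.27. Every DMSO library was above 1 and every Tg library below 0.5, so that in Tg both alleles lay below the range that had chosen the element. The fitted changes were -0.96 ± 0.06 (SE, adjusted p = 3.82e-20) and -0.99 ± 0.055 (SE, adjusted p = 4.07e-22). At rs2356215 (chromosome 10, position 17073900, T to C), in an intron of CUBN, a receptor for the vitamin B12 and intrinsic factor complex, the study's motif table lists PAX5. The reference allele there read 1.37, 1.77, 1.29, 1.40 and 1.60 in DMSO and 0.73, 0.59, 0.48, 0.65 and 0.60 in Tg, with no overlap and a change of -0.87 ± 0.065 (SE, adjusted p = 1.42e-13). Its alternate allele changed by -0.89 ± 0.088 (SE, adjusted p = 7.56e-07).

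The other falls of this size are from elements whose position is not given in the tables used here. Both alleles of rs2301707 stood at a mean of 1.94 ± 0.21 and 1.93 ± 0.22 (SD, n = 5) in DMSO and at 1.05 ± 0.15 and 0.97 ± 0.18 in Tg, with adjusted p of 2.22e-10 and 2.9e-12 by edgeR. Those of rs2276419 stood at 2.00 ± 0.19 and 1.99 ± 0.20 in DMSO and at 1.08 ± 0.17 and 1.14 ± 0.13 in Tg. At rs34402301 the alleles differed in level while both fell, from 2.00 ± 0.25 and 1.55 ± 0.21 to 1.03 ± 0.17 and 0.78 ± 0.14. For rs9592021 the mean fell from 2.33 ± 0.22 and 2.42 ± 0.16 to 1.50 ± 0.22 and 1.53 ± 0.17. The mean log2 fold change over the alleles was -1.08 at rs7320023 and -1.01 at rs1990352, which complete the 10 largest falls. None of these elements had overlapping DMSO and Tg libraries.

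Of the 5 elements that the study's annotation places in a 5′ untranslated region or upstream of a gene, 4 fell for both alleles, against 8 of 36 such SNPs among all tested, and they were singled out after their values were seen. Beside rs17164589 they are rs11073967 in the 5′ untranslated region of VPS33B, a vesicle trafficking gene, rs12402498 in that of PHF13, a reader of histone H3 methylation, and rs1877714 in that of AAMP. The reference allele of rs11073967 (chromosome 15, position 91565804) read 1.34, 1.76, 1.33, 1.47 and 1.54 in DMSO and 1.02, 0.70, 0.65, 0.62 and 1.01 in Tg, a change of -0.67 ± 0.098 (SE, adjusted p = 0.000324) by edgeR. At rs12402498 the reference allele read 1.36, 1.90, 1.38, 1.48 and 1.71 in DMSO and 0.95, 0.66, 0.52, 0.89 and 0.86 in Tg, a change of -0.78 ± 0.10 (SE, adjusted p = 1.25e-08). At rs1877714 it read 1.47, 1.90, 1.46, 1.63 and 1.59 in DMSO and 1.09, 0.97, 0.73, 0.87 and 0.97 in Tg, a change of -0.67 ± 0.071 (SE, adjusted p = 2.92e-11). In all 3 cases every Tg library lay below every DMSO library, also for the alternate allele. The annotation covers 18 of the 124 elements, and the table behind it was held only in part, so that these counts are not a share of the whole library.

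A feature of the libraries runs through the whole falling group. In all 42 elements, DMSO library 2 had the highest activity of the 5 DMSO libraries, with a median of 1.85 over the group against 1.45 to 1.59 in the other 4. In the 25 elements that rose, library 2 was the highest of DMSO in none. For elements with 1 allele past the test, the DMSO median was 0.72 in library 2 against 0.75 to 0.79 in the others. For those with none past it, the median was 0.61 against 0.60 to 0.64. Single elements outside the falling group had their highest DMSO value in library 2 as well, such as the alternate allele of rs4276083. The share over all sequences was not counted. Without DMSO library 2, 39 elements fell and 20 rose for both alleles, and without DMSO library 5, which gave the fewest falls of the 10 libraries left out, 35 fell and 22 rose. The part of library 2 in the size of the falls was not tested beyond leaving it out.

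Among the elements that rose, the mean log2 fold change of both alleles ran from 0.24 to 0.47, with a median of 0.32, so that the median rise was smaller in size than the median fall. The largest rise without overlap between DMSO and Tg libraries was at rs275856 (chromosome 18, position 21839152, A to T), at OSBPL1A, which encodes an oxysterol-binding protein-like factor. Its reference allele read 0.99, 0.82, 0.92, 1.04 and 0.84 in DMSO and 1.39, 1.24, 1.35, 1.35 and 1.28 in Tg. The alternate allele read 1.08, 1.05, 1.15, 1.20 and 1.18 in DMSO and 1.58, 1.70, 1.44, 1.51 and 1.64 in Tg. All Tg values lay above all DMSO values of the same allele, and the alternate allele was the higher one in all 10 libraries. The changes were 0.41 ± 0.055 (SE, adjusted p = 1.6e-08) and 0.46 ± 0.054 (SE, adjusted p = 5.69e-10) by edgeR, or 1.33-fold and 1.38-fold. At rs12794698 (chromosome 11, position 45871861, G to A), at CRY2, the reference allele read 0.82, 0.87, 0.94, 0.92 and 0.95 in DMSO and 1.16, 1.20, 1.18, 1.21 and 1.36 in Tg. The alternate allele read 0.80, 0.79, 0.88, 0.93 and 0.89 in DMSO and 1.32, 1.27, 1.25, 1.24 and 1.19 in Tg. Neither allele overlapped between conditions, with changes of 0.34 ± 0.053 (SE, adjusted p = 1.1e-06) and 0.41 ± 0.052 (SE, adjusted p = 4.4e-09).

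At the locus of INTS8, a subunit of the Integrator complex, rs59091366 and rs59265059 lie 32 bp apart, so that their oligos overlap and are not independent. The reference allele of rs59091366, where the motif table lists Zfx, read 1.42, 1.29, 1.38, 1.34 and 1.36 in DMSO and 1.72, 1.73, 1.74, 1.58 and 1.67 in Tg. That of rs59265059 read 1.12, 1.04, 1.25, 1.16 and 1.05 in DMSO and 1.44, 1.34, 1.38, 1.42 and 1.53 in Tg. Both rose without overlap, by 0.35 ± 0.054 (SE, adjusted p = 1.08e-06) and by 0.32 ± 0.053 (SE, adjusted p = 6.75e-06) in edgeR, and the alternate alleles rose by 0.36 ± 0.054 (SE) and 0.35 ± 0.052 (SE). The third element of this locus, rs11775899, rose for its reference allele by 0.26 ± 0.053 (SE, adjusted p = 0.000227), and its alternate allele had 0.17 ± 0.064 (SE) with an adjusted p of 0.0937.

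More than 1 of the elements carries the locus name of GABRA4, a GABA A receptor subunit gene. In its intron, rs12649623 (chromosome 4, position 46938519, G to A), listed with Zfx, read 1.11, 0.99, 1.03, 1.25 and 1.07 in DMSO and 1.47, 1.49, 1.26, 1.33 and 1.48 in Tg for the reference allele, a rise of 0.33 ± 0.057 (SE, adjusted p = 8.32e-06) by edgeR with no overlap. At rs10017264 of the same locus, the reference allele read 0.83, 0.85, 1.05, 0.97 and 0.93 in DMSO and 1.03, 1.12, 1.25, 1.25 and 1.17 in Tg, where the lowest Tg value fell below the highest DMSO value. Its reference allele rose by 0.26 ± 0.058 (SE, adjusted p = 0.000888) and its alternate allele by 0.33 ± 0.063 (SE, adjusted p = 8.99e-05). At rs7597825 (chromosome 2, position 61870875, G to A), between XPO1, the main nuclear export receptor gene, and FAM161A, the reference allele read 0.96, 0.74, 0.96, 0.91 and 0.92 in DMSO and 1.14, 1.32, 1.34, 1.01 and 1.14 in Tg, a rise of 0.31 ± 0.058 (SE, adjusted p = 5.98e-05). DMSO library 2 was the lowest there, and the groups did not overlap.

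Of the remaining large rises, rs58166834 was the most active, with means of 1.23 ± 0.083 in DMSO and 1.54 ± 0.044 (SD, n = 5) in Tg for its reference allele. The reference allele of rs4771189 was the least active in DMSO, at 0.35 ± 0.13, and reached 0.72 ± 0.084 in Tg. That of rs35140055 went from 0.73 ± 0.048 to 1.02 ± 0.099. Under total count scaling the call of both alleles was lost at rs4771189 (larger adjusted p = 0.0183 by edgeR) and at rs35140055 (0.0133). The element rs12714223 went from 0.76 ± 0.17 to 1.16 ± 0.14 for the reference and from 0.75 ± 0.094 to 1.07 ± 0.16 for the alternate allele, whose adjusted p of 0.00866 lay near the threshold, and the call of both alleles was lost without DMSO library 1, 2, 4 or 5 and without Tg library 2 or 4, with the larger adjusted p of the alleles at 0.0158 to 0.0427. That call was also lost with the replicate number as a block (larger adjusted p = 0.0112 by edgeR), on run 1 (0.0159) or run 2 (0.0115) alone and under total count scaling (0.075). A rise with overlapping libraries was seen at rs28499105, in an intron of ARL15, a small GTPase gene of the ARF family, listed with IRF1. Its reference allele read 1.60, 1.00, 1.19, 1.34 and 1.49 in DMSO and 1.68, 1.67, 1.83, 1.87 and 1.56 in Tg, a change of 0.40 ± 0.083 (SE, adjusted p = 0.000403) by edgeR. At rs2301825, at RCCD1, the alternate allele rose from 0.20, 0.17, 0.18, 0.29 and 0.25 to 0.75, 0.73, 0.64, 0.97 and 0.84, by 0.59 ± 0.076 (SE, adjusted p = 6.99e-09), and the reference allele by 0.34 ± 0.079 (SE, adjusted p = 0.00125). The groups did not overlap for the alternate allele, while they did for the reference allele.

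Several further elements at named loci rose for both alleles. At rs71304101, at PPARG, the nuclear receptor of adipocyte differentiation, the reference allele read 0.44, 0.42, 0.56, 0.48 and 0.45 in DMSO and 0.91, 0.95, 0.75, 0.99 and 0.71 in Tg, a rise of 0.41 ± 0.058 (SE, adjusted p = 1.06e-07) by edgeR, and the alternate allele rose by 0.32 ± 0.057 (SE, adjusted p = 1.77e-05). The locus of rs10965248 is named for CDKN2B-AS1, the long non-coding RNA beside the cell cycle inhibitor genes CDKN2A and CDKN2B. At this SNP the reference allele rose by 0.20 ± 0.055 (SE, adjusted p = 0.00867) and the alternate allele by 0.28 ± 0.055 (SE, adjusted p = 0.000118). These elements were singled out for their locus after their values were seen. At rs9462393, at ZFAND3, the alleles rose by 0.21 ± 0.053 (SE, adjusted p = 0.00336) and 0.28 ± 0.054 (SE, adjusted p = 7.07e-05), with Tg libraries all above DMSO libraries. At rs947735 (chromosome 6, position 137295908, C to G), which the study names, the reference allele read 0.23, 0.49, 0.62, 0.29 and 0.32 in DMSO and 0.65, 0.63, 0.61, 0.85 and 0.64 in Tg. The alternate allele read 0.56, 0.45, 0.56, 0.62 and 0.52 in DMSO and 0.96, 0.78, 0.77, 0.80 and 0.81 in Tg. The lowest Tg value of the reference allele lay just below its highest DMSO value, while the libraries of the alternate allele did not overlap, with rises of 0.29 ± 0.064 (SE, adjusted p = 0.000589) and 0.30 ± 0.056 (SE, adjusted p = 5.12e-05).

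Other elements missed the threshold for both alleles or passed it for 1 allele. At rs10248619, at GRB10, the reference allele read 1.11, 0.94, 0.95, 0.93 and 0.95 in DMSO and 1.06, 0.90, 0.87, 0.95 and 0.80 in Tg, with a change of -0.04 ± 0.054 (SE, adjusted p = 0.769) by edgeR, and the groups overlapped. The element at FITM2, rs4276083, read 2.30, 2.68, 2.04, 2.18 and 2.41 in DMSO and 2.04, 1.76, 1.78, 1.99 and 2.04 in Tg for the alternate allele, a change of -0.39 ± 0.10 (SE, adjusted p = 0.033) that missed the threshold of 1%, with the motif table listing NFYA and NFYB. At rs12428731, near SPRY2, the changes were 0.17 ± 0.088 (SE, adjusted p = 0.316) and 0.22 ± 0.076 (SE, adjusted p = 0.0504), and at rs1866475, at AP3S2, an adaptor complex subunit gene, 0.20 ± 0.12 (SE, adjusted p = 0.419) and 0.37 ± 0.13 (SE, adjusted p = 0.0534). At rs343093, at HMGA2, a chromatin architectural protein gene, the reference allele rose by 0.35 ± 0.07 (SE, adjusted p = 0.000152) and the alternate allele had 0.22 ± 0.067 (SE, adjusted p = 0.0235). At rs76647135, near the proteasome subunit gene PSMD6, the reference allele rose by 0.24 ± 0.062 (SE, adjusted p = 0.00409) and the alternate allele had 0.18 ± 0.059 (SE, adjusted p = 0.045).

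Set beside standard culture, the falling and the rising group had different profiles over all conditions. The medians of the falling elements were 0.44 to 0.78 over the 5 standard culture libraries, 1.45 to 1.85 over DMSO and 0.74 to 1.03 over Tg, and RNA number 1 of standard culture gave 0.41. The medians of the rising elements were 0.93 to 1.02 for standard culture, 0.80 to 0.92 for DMSO and 1.15 to 1.22 for Tg, and RNA number 1 gave 1.03. In all 42 falling elements every DMSO value of the mean over alleles was above every standard culture value, and in 30 of the 42 the Tg and standard culture values overlapped. In 10 of the 25 rising elements every DMSO value was below every standard culture value, and in 11 of the 25 the Tg and standard culture values overlapped. Such counts were not made over all SNP pairs, so they cannot be called particular to these groups. The groups were formed on the DMSO and Tg values, so that their DMSO levels are a description, and DMSO, medium change, plasmid batch and the number of PCR cycles cannot be told apart between standard culture and the other conditions. For elements with 1 allele past the test the medians over elements were 0.84, 0.74 and 0.88 for standard culture, DMSO and Tg, and for those with none 0.68, 0.61 and 0.70.

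The lists of SNPs that the study drew up from these libraries for allelic effects gave different counts. Of the 26 elements on its T2D list, 11 rose and 1 fell for both alleles, with a median log2 fold change of 0.27 over their sequences, and of the 220 SNPs of the whole list 43 rose and 10 fell, with a median of 0.10. The element of this list that fell for both alleles was rs11073967. Off the list, rs17164589, which the study's tables tie to a T2D signal at MAEA, fell for both alleles as well. Of the 15 elements on its list of SNPs with islet chromatin accessibility QTLs, none rose and 10 fell, with a median of -0.71, and of the 390 SNPs of the whole list 4 rose and 49 fell, with a median of -0.09. The 83 elements on neither list had 14 rises and 31 falls, with a median of 0.06, against 38 and 117 among 5894 SNPs. Both lists hold only SNPs with an allelic effect in the study, not all T2D or accessibility SNPs that it tested. Elements on neither list thus include SNPs of T2D signals, such as rs71304101 and rs10965248. Since the lists were chosen on these samples they are not independent evidence, and the difference between them was not tested.

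Haplotype versions, which differ from the main pair at a nearby SNP, were present for 3 of the elements, and their changes are given beside those of the main sequences. For rs34274195 they changed by -0.81 and -0.85 in Tg (adjusted p = 1.9e-09 and 5.98e-16 by edgeR), against -0.77 and -0.79 for the main pair. For rs551633086 they changed by -0.72 and -0.84 (adjusted p = 4.64e-05 and 2.31e-13), against -0.72 and -0.93. For rs62325139 the values were 0.25 and 0.21, with adjusted p of 0.475 and 0.561, against 0.28 and -0.09. All versions of an element share most of their bases and were read in the same libraries.

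Allelic effects passed the test in a minority of the elements in each condition. The allelic effect is the activity of the alternate minus that of the reference allele in each library, and limma tested it at an FDR of 10% wherever 1 or both alleles were active. In DMSO 36 of 121 tested elements had an allelic effect (29.8%, against 43.0% of all 1569 SNPs tested), with the alternate allele higher in 17 and the reference allele in 19. In Tg 30 of 123 had one (24.4%, against 35.8% of 1059), with the alternate allele higher in 12 and the reference allele in 18. A pair with 1 allele outside the range was not chosen, while the SNPs tested overall needed only 1 active allele. The choice thus left out pairs with alleles far apart in standard culture, and the shares are not directly comparable. With all SNPs of enough plasmid counts in the adjustment, in place of active ones, 18 passed in DMSO and 6 in Tg. The sign was the same in 5 of 5 libraries for 32 of the 36 in DMSO and for 22 of the 30 in Tg. In 6 of the 36 and in 2 of the 30 the effect was under 3 standard errors of the plasmid ratio of the alleles, which every library of a condition shares. In both conditions 19 elements passed, 17 passed in DMSO without passing in Tg and 11 in Tg without passing in DMSO. These counts include elements not tested in the other condition, namely rs7320023 in Tg and rs4686471 and rs62325139 in DMSO. The conditions share their plasmid libraries.

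Pairs above 2 in standard culture had an allelic effect in 36 of 51 SNPs in DMSO (70.6%) and in 34 in Tg (66.7%), and pairs between 0 and 0.5 in 409 of 1135 (36.0%) and in 195 of 723. The median size of the effect over the elements was 0.072 in DMSO and 0.071 in Tg, against 0.19 and 0.17 in pairs above 2, with no test of the difference. Pairs between 0 and 0.5 entered only where an allele had passed the activity test, so their size is not comparable.

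The largest allelic effect in both conditions was at rs11775899, at INTS8, where the reference A allele exceeded the C allele. The difference was -0.65, -0.64, -0.72, -0.59 and -0.76 in DMSO libraries and -0.88, -0.72, -0.68, -0.86 and -0.66 in Tg libraries, so that all 10 values were negative. Its effect was -0.67 ± 0.039 (SE, limma adjusted p = 1.15e-05) in DMSO and -0.76 ± 0.052 (SE, limma adjusted p = 3.74e-05) in Tg, and the standard culture mean was -0.72. At rs12477908 (chromosome 2, position 27987046, A to C), printed above, the values were -0.52, -0.41, -0.54, -0.58 and -0.42 in DMSO and -0.57, -0.57, -0.73, -0.43 and -0.61 in Tg. All 10 were negative, with an effect of -0.49 ± 0.041 (SE, limma adjusted p = 6.64e-05) in DMSO and -0.58 ± 0.052 (SE, limma adjusted p = 0.000158) in Tg. It belongs to a fasting glucose signal with few candidate SNPs in the study's table. At rs34402301 the differences were -0.40, -0.53, -0.44, -0.47 and -0.45 in DMSO and -0.36, -0.12, -0.29, -0.28 and -0.21 in Tg, an effect of -0.46 ± 0.036 (SE, limma adjusted p = 5.75e-05) and -0.25 ± 0.048 (SE, limma adjusted p = 0.00748).

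The alternate allele was higher at rs28523940, with 0.53, 0.63, 0.37, 0.52 and 0.52 in DMSO, an effect of 0.51 ± 0.044 (SE, limma adjusted p = 7.94e-05). In Tg its libraries read 0.05, 0.45, 0.31, 0.30 and -0.05 and spread around a smaller mean, with 0.21 ± 0.078 (SE, limma adjusted p = 0.0831) and 1 library below 0, and the difference between conditions was -0.30 ± 0.094 (SE, limma adjusted p = 0.15), which missed the threshold. At rs4761380 the differences were 0.41, 0.40, 0.30, 0.45 and 0.25 in DMSO and 0.31, 0.36, 0.34, 0.25 and 0.24 in Tg, all positive, with effects of 0.36 ± 0.043 (SE, limma adjusted p = 0.000431) and 0.30 ± 0.042 (SE, limma adjusted p = 0.0017). At rs4276083, at FITM2, the alternate A allele was higher in all 10 libraries, by 0.28 ± 0.04 (SE, limma adjusted p = 0.00135) in DMSO and 0.30 ± 0.054 (SE, limma adjusted p = 0.00548) in Tg. At rs8020999 it was higher in all 10 as well, by 0.28 ± 0.058 (SE, limma adjusted p = 0.00838) and 0.27 ± 0.041 (SE, limma adjusted p = 0.00244), whereas its standard culture mean was 0.03 ± 0.023 (SD, n = 5).

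At rs11311113, a deletion of 1 base at PRC1, a microtubule-bundling protein gene of cytokinesis, the alternate allele was lower in 5 of 5 DMSO libraries, with -0.22, -0.23, -0.44, -0.41 and -0.24, an effect of -0.31 ± 0.048 (SE, limma adjusted p = 0.00203). In Tg the effect was -0.13 ± 0.052 (SE, limma adjusted p = 0.108), past the threshold in DMSO alone, and the difference between conditions was 0.18 ± 0.072 (SE, limma adjusted p = 0.308). At rs256266, in an intron of FSTL4 and listed with YY1, DMSO gave -0.28 ± 0.053 (SE, limma adjusted p = 0.00465) and Tg -0.11 ± 0.063 (SE, limma adjusted p = 0.239), with a difference of 0.17 ± 0.087 (SE, limma adjusted p = 0.381). At rs2306626 (chromosome 1, position 38156343, G to A), DMSO gave -0.26 ± 0.036 (SE, limma adjusted p = 0.00113) and Tg -0.28 ± 0.053 (SE, limma adjusted p = 0.00663), all 10 libraries being negative. In standard culture these 3 had means of -0.10, 0.01 and -0.06.

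Some of the larger effects in Tg rested on few counts or on uneven libraries. At rs56006341 the differences were -0.45, -0.76, -0.06, -1.09 and -1.08 in Tg, an effect of -0.69 ± 0.15 (SE, limma adjusted p = 0.013), with a mean of 224 and 328 plasmid counts for its alleles. All 5 were negative, and they ranged widely. The call at rs56006341 was lost with all SNPs in the adjustment (limma adjusted p = 0.155). At rs4586599 the differences were 0.07, 0.19, 0.21, 0.87 and 0.65, all positive, an effect of 0.40 ± 0.12 (SE, limma adjusted p = 0.0441) that lost its call without Tg library 5 (adjusted p = 0.131), with 572 and 484 plasmid counts. That call was also lost with all SNPs in the adjustment (limma adjusted p = 0.283) and by a t statistic of each SNP (adjusted p = 0.163). At rs74378743 the differences were -0.34, -0.44, -0.27, -0.25 and -0.47, an effect of -0.35 ± 0.05 (SE, limma adjusted p = 0.0018), and the DMSO effect of -0.24 ± 0.084 (SE, limma adjusted p = 0.0552) held 2 libraries near 0. For rs275856, at OSBPL1A, the alternate T allele was higher in all 10 libraries, by 0.21 ± 0.044 (SE, limma adjusted p = 0.00828) in DMSO and 0.25 ± 0.064 (SE, limma adjusted p = 0.0239) in Tg. For rs9462393, at ZFAND3, the alternate T allele was higher by 0.24 ± 0.04 (SE, limma adjusted p = 0.0029) and 0.31 ± 0.052 (SE, limma adjusted p = 0.00414). For rs947735 the effect was 0.15 ± 0.07 (SE, limma adjusted p = 0.13) in DMSO and 0.15 ± 0.057 (SE, limma adjusted p = 0.0912) in Tg, where only the latter passed, with 1 library of Tg below 0. The difference between conditions at rs947735 was 0.00 ± 0.096 (SE, limma adjusted p = 0.998). For this SNP and rs947734 the study reports activity and allelic effects that both increased in Tg. Here the activity of rs947735 rose for both alleles, and no change of its allelic effect was called.

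A change of the allelic effect between Tg and DMSO passed the test at 2 of 124 elements (1.61%, against 3.83% of 1670 SNPs). By limma 11 of the 124 (8.87%) had an unadjusted p under 0.05. The share of all SNPs under that value was not counted, so no excess can be read from it. At rs2630744 the alternate minus reference difference was -0.16, -0.22, 0.08, -0.21 and -0.03 in DMSO and 0.28, 0.21, 0.11, 0.35 and 0.63 in Tg. Every Tg value lay above every DMSO value, and the change was 0.42 ± 0.099 (SE, limma adjusted p = 0.0554). Its reference allele fell in Tg by 1.47-fold, a log2 fold change of -0.56 ± 0.062 (SE, adjusted p = 8.3e-11) by edgeR, while its alternate allele had -0.13 ± 0.057 (SE, adjusted p = 0.191). At rs7974293 the difference was 0.11, 0.16, 0.00, 0.04 and 0.06 in DMSO and -0.17, -0.10, -0.16, -0.24 and -0.13 in Tg, without overlap, and the change was -0.23 ± 0.054 (SE, limma adjusted p = 0.0554). Its reference allele rose by 0.33 ± 0.066 (SE, adjusted p = 0.000131) and its alternate allele had 0.10 ± 0.058 (SE, adjusted p = 0.375). Both calls were lost when DMSO library 1, 2, 4 or 5 or Tg library 4 was left out, with adjusted p of 0.101 to 0.151, and with the replicate number as a block, with adjusted p of 0.128 at rs2630744 and 0.132 at rs7974293 by limma.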

How the data were processed

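The MPRA was measured in MIN6 cells in standard culture, DMSO and Tg, and 5 RNA libraries of each were used, with 5 libraries of each plasmid batch. As deposited, the values are counts, which the authors made by summing the barcode reads of each sequence and library, with no normalization. DESeq2 is listed, with no version, in the processing notes of the submitters. The barcode counter used by the authors is among the tools not given in the sources used here. Barcodes that matched more than 1 sequence had been discarded. The DMSO, Tg and batch 2 plasmid counts of both sequencing runs were summed by library. Per-sample columns not read number 0. The standard culture table holds 9 RNA columns over 6 numbers, with a second column for numbers 2, 4 and 6, and 6 plasmid columns. The first column of numbers 2, 3 and 5, the second column of numbers 4 and 6 and plasmid columns 1 to 5 were used, and the others entered alternatives or checks only.

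The elements, lists and named SNPs were chosen with earlier results of these data known. Sequences whose plasmid counts averaged 10 or more entered edgeR 4.0.16 in R 4.3.3 (quasi-likelihood, TMM scaling, robust dispersion), RNA against plasmid and Tg against DMSO, at a Benjamini-Hochberg FDR of 1% over all sequences. Allelic effects were tested with limma 3.58.1 at an FDR of 10% over all SNPs with an active allele, on log2 ratios with a pseudocount of 1. Tests are two-sided, and the text gives the adjusted p-values of these fits. Tables were joined with Python 3.11.15 and pandas 2.3.3, and simulated data with known answers were used to test the fits. Replicates are transfections on separate days. Any counting interval of such reads would cover counting error only.

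Named are SNPs that the study names, the 10 largest rises and falls in Tg with both alleles past the threshold and no overlap between DMSO and Tg, the 10 largest allelic effects in DMSO and 5 in Tg with 1 sign in 5 of 5 libraries, every change of an allelic effect past the threshold up to 10, the 5 highest and lowest elements in DMSO and in Tg, those at the limits of the range, those of signals with 1 to 3 SNPs and those with bases to print. Others are said to be chosen after their values were seen. Positions and annotations are those of hg19 in the study's tables, some held in part. The genome at hand is mouse and was not used. Alternatives were DESeq2 1.42.0 and its size factors, total counts only, filters on plasmid counts, pseudocounts of 0.5 and 10, each run alone, the plasmid library of the same number, all SNPs tested, a t statistic of each SNP, the replicate number as a block, a plasmid minimum of 2000, other columns of standard culture and each library left out. Some elements and sequences are not reported here.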

Additional observations from a re-analysis of the deposited data

Results flagged for a closer look

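The change of the allelic effect from DMSO to Tg passed limma's test at rs2630744, with 0.42 on the log2 scale, and at rs7974293, with -0.23. At rs2630744 the alternate allele gained on the reference allele in Tg, and at rs7974293 it lost.

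In 4 of 99 groups of 5 libraries a library stood apart from the others by Dixon's criterion, where chance alone marks about 1 in 20 groups. The gap to the nearest library, divided by the range of the group, was 0.741 for the reference allele of rs12794698 in Tg, where library 5 read 1.36 and the next 1.21. It was 0.711 for the reference allele of rs34402301 in Tg, where library 1 read 1.33 and the next 1.02. It was 0.717 for the reference allele of rs4771189 in Tg, where library 4 read 0.86 and the next 0.71. It was 0.741 for the reference allele of rs7597825 in DMSO, where library 2 read 0.74 and the next 0.91.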

How the results depend on the processing

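Of the 178 alternative values of the counts of elements or sequences, 162 stayed within 1.5 times the value reported. Scaled by total counts only, active sequences fell to 144 in DMSO and 92 in Tg, sequences higher in Tg to 32 and elements with both alleles higher to 9. Under this scaling the RNA over plasmid log2 ratio, as a mean of the alleles, turned negative in DMSO for rs8042747 (-0.53), rs2301825 (-0.48), rs7970193 (-0.45), rs4686471 (-0.40) and rs8180033 (-0.41), and in Tg for rs7320023 (-0.61), rs2871741 (-0.51), rs7970193 (-0.40), rs8042747 (-0.39) and rs1990352 (-0.40). With all SNPs in the adjustment, allelic effects numbered 18 in DMSO and 6 in Tg, and changes of the allelic effect 0. Those changes, 2 as reported, numbered 1 with the plasmid library of the same number, 4 on run 1 and 1 on run 2, and 0 to 3 with 1 library left out. Of the values of single elements, 47 alternatives kept their direction and lost the threshold, and 857 kept both. Elements with both alleles lower in Tg numbered 35 to 43 with 1 library left out. The cause of these shifts, and the part of depth in them, was not tested.

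DMSO and Tg libraries share replicate numbers, and the study calls its replicates paired without saying that a number marks a pair. Deviations of libraries with the same number correlated at 0.0041 to 0.054 over 13413 sequences, and those of different numbers at -0.074 to 0.038. With the replicate number as a block, 161 sequences were higher or lower in Tg, in place of 157, both alleles were lower in 44 elements and higher in 25, and changes of the allelic effect numbered 0.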
